A study of Mus musculus with 8 samples.

Results

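The 10 genes described here take up dying cells or move the lipid that those cells carry, and were chosen by symbol: the TAM receptors Axl, Mertk and Tyro3, their ligands Gas6 and Pros1, the bridging protein gene Mfge8, the uptake receptors Stab1 and Cd36, and the cholesterol exporters Abca1 and Abcg1. All 10 were found among the 15283 genes of the bulk liver table and among the 22578 genes of the nuclear table. The livers came from Tgfbr1 MKO mice, with floxed Tgfbr1 alleles on both chromosomes (flox/flox) and LysMcre, in which the Lyz2 locus of myeloid cells drives Cre recombinase, and from control mice, which carried the same floxed alleles without the Cre. Every mouse had received a MASH diet, a model of metabolic dysfunction-associated steatohepatitis, for 30 weeks, so no group on a normal diet and no group with wild-type Tgfbr1 alleles enters these comparisons, and the labels used here give no age or sex. Bulk RNA-seq covered 3 MKO and 3 control libraries, numbered in the labels and called livers 1 to 3 here. The labels do not say whether these came from separate animals. Single-nucleus RNA-seq covered 1 pool of 3 livers for each genotype, averaged over 13 clusters of nuclei.

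Dying cells display phosphatidylserine on their surface, and phagocytes recognise it through receptors and soluble bridging proteins in a process called efferocytosis. GAS6 and protein S bind phosphatidylserine at one end and a TAM receptor tyrosine kinase at the other, MFG-E8 links it to integrins, and stabilin-1 binds it directly. The engulfed cell brings cholesterol, which activates the LXR nuclear receptors, and these induce the exporters ABCA1 and ABCG1; Mertk is an LXR target too. In liver, Kupffer cells and other macrophages carry much of this work, while sinusoidal endothelial cells hold scavenger receptors of their own. The comparison asks what loss of a TGF-beta receptor from myeloid cells does to these genes.

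In the MKO livers Axl, Abcg1 and Mertk were higher than in control livers, by 2.34-fold, 2.03-fold and 1.53-fold, and the other 7 genes did not pass the test. These 3 calls out of 10 stand beside 2.96% of all 15249 genes tested that were called higher in MKO livers. None of the 10 was called lower, beside 0.0853% of all genes. A gene was called where limma's test on log2(value + 1) gave a Benjamini-Hochberg adjusted p under 0.05 over all tested genes, and levels are given below as normalised read counts, in which 1 read is worth 0.9631 to 1.2205 depending on the library. The same 3 genes, and no other member, had MKO and control libraries that did not overlap, which held for 19.4% of all genes. The median log2 fold change was 0.13 over the 10 genes and -0.02 over all genes.

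The libraries held between 17448117 and 23986319 recovered reads. MKO and control libraries were separated on principal component 1, which held 36.4% of the variance, and on component 2 (20.8%) MKO liver 1 lay at 48.5 while the other libraries lay between -23.0 and 4.7. Tgfbr1 itself averaged 717 ± 149 in MKO livers and 775 ± 36.6 in control livers (SD, n = 3 each); on the log2 scale the difference was -0.13 ± 0.16 (SE, adjusted p = 0.816 by limma). In the macrophage-like nuclei Tgfbr1 stood at 4.87 per 10000 in the MKO pool and 13.5 in the control pool. Which exon was floxed is not stated in the labels, and the bulk value includes Tgfbr1 transcripts from cells that do not express the Cre. In bulk tissue, fewer or more cells of a type and less or more RNA per cell cannot be told apart. For 15 general macrophage markers, all of them measured and none at 0, levels were summed. The summed level was 10788 to 18241 in MKO livers and 4967 to 7899 in control livers, without overlap. Lyz2, the locus that drives the Cre in MKO mice, is on this list. It averaged 939 ± 391 in MKO livers and 1224 ± 323 in control livers. The part of the summed level in the bulk results was not tested.

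Axl encodes a TAM receptor that binds GAS6 (chromosome 7, 25757273 to 25788705, - strand; coordinates here are GRCm38, the mm10 build, with GENCODE M21 gene models). Its normalised read counts were 753, 1106 and 881 in MKO livers 1 to 3, against 421, 388 and 360 in control livers 1 to 3. Every MKO library lay well above every control library, and MKO liver 2 was the highest. The means were 914 ± 179 in MKO livers and 390 ± 30.8 in control livers (SD, n = 3 each), and the log2 fold change was 1.21 ± 0.16 (SE; 95% interval 0.86 to 1.57; limma adjusted p = 0.00535). In the authors' deposited table the log2 fold change of Axl was 1.23 and its adjusted p 1.95e-10.

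Mertk encodes the TAM receptor that macrophages use to take up apoptotic cells (chromosome 2, 128698956 to 128802894, + strand). It was read at 681, 727 and 733 in MKO livers and at 514, 456 and 426 in control livers. The groups did not overlap, and the MKO libraries lay close together. Mertk averaged 714 ± 28.4 in MKO livers and 465 ± 44.7 in control livers, a log2 fold change of 0.62 ± 0.12 (95% interval 0.36 to 0.89; limma adjusted p = 0.0245). The call was lost, with adjusted p between 0.103 and 0.114, when MKO liver 2, MKO liver 3, control liver 2 or control liver 3 was left out, while the log2 fold change stayed between 0.56 and 0.69.

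Tyro3, the TAM receptor best known from the nervous system (chromosome 2, 119797733 to 119818104, + strand), was low in these livers. The counts were 12.2, 19.4 and 5.78 in MKO livers and 13, 6.3 and 15.8 in control livers, and both groups spread over the same range. The log2 fold change was 0.03 with a 95% interval from -1.17 to 1.23 (limma adjusted p = 0.99), so at this depth a change of 2-fold in either direction lay within the interval. The 3 receptors of the family thus held very different levels: per kilobase of exon, the normalised counts of Tyro3 were 2.01 in MKO livers and 1.89 in control livers, those of Axl 182 and 77.5, and those of Mertk 165 and 107.

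Axl and Mertk, the pair of receptors called higher, are shown with the 250 bases before their RefSeq starts (GRCm38.p6), because both passed the same test in bulk liver and both bind GAS6. Capitals mark the GC box GGGCGG or its complement, read on either strand.
Axl promoter, chr7:25788734-25788983, - strand: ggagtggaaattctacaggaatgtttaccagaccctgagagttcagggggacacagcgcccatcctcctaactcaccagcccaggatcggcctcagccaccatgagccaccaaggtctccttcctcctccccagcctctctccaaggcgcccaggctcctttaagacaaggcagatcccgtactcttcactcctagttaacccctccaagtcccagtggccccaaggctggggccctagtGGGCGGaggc
Mertk promoter, chr2:128698665-128698914, + strand: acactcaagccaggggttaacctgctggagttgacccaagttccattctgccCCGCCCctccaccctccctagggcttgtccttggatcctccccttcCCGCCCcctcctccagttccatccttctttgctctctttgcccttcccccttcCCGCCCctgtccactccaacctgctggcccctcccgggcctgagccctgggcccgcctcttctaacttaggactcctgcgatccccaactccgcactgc
The Axl window held 1 GC box at position -10, counted from the RefSeq start with -1 as the last base before it, and the Mertk window held 3 on the reverse strand at -198, -152 and -99. A GC box was present in 33.0% of the 32536 mouse promoters of the same length, and 8 of the 9 members in the RefSeq table had at least 1; Abcg1 is the member not in that table. Neither window held the AGGTCA half-site (14.0% of promoters), the E-box CACGTG (6.04%), the palindrome GTCTAGAC bound by SMAD proteins (0.169%), the AP-1 motif TGANTCA (6.73%) or the PU.1 motif GAGGAAGT (2.45%), searched on both strands. Such matches only describe the letters in these windows.

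Gas6, the ligand of all TAM receptors (chromosome 8, 13465374 to 13494490, - strand), had 1252, 1486 and 1012 normalised counts in MKO livers and 1191, 1937 and 1915 in control livers. Control livers 2 and 3 were the highest and control liver 1 lay inside the MKO range. The means of 1250 ± 237 in MKO livers and 1681 ± 424 in control livers gave a log2 fold change of -0.41 ± 0.21 (95% interval -0.90 to 0.08; limma adjusted p = 0.51). An exon of Tmem255b overlaps Gas6 on the opposite strand, and since the sources used here do not state whether counting used the strand, reads of that stretch cannot be told apart.

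Pros1 encodes protein S, a plasma anticoagulant and a ligand of MERTK and TYRO3 (chromosome 16, 62854307 to 62929346, + strand). Counts of 1471, 2110 and 2414 in MKO livers stood against 1607, 2065 and 1538 in control livers. The ranges overlapped, with 2 MKO libraries above every control library and the third below them all, and the log2 fold change was 0.18 ± 0.20 (95% interval -0.26 to 0.63; limma adjusted p = 0.785). Mfge8 (chromosome 7, 79133768 to 79149060, - strand) was measured at 238, 322 and 268 in MKO livers and at 236, 219 and 335 in control livers. Its groups covered nearly the same range, with a log2 fold change of 0.08 ± 0.19 (95% interval -0.36 to 0.52; limma adjusted p = 0.919).

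Stab1, the stabilin-1 gene of sinusoidal endothelium and some macrophages (chromosome 14, 31139013 to 31168641, - strand), had counts of 1664, 926 and 1058 in MKO livers and 1207, 873 and 834 in control livers. MKO liver 1 was the highest library and the remaining values interleaved. The log2 fold change was 0.30 ± 0.23 (95% interval -0.23 to 0.82; limma adjusted p = 0.692). An exon of Nt5dc2 overlaps Stab1 on the opposite strand, with the same limit as for Gas6. Cd36, a receptor for long-chain fatty acids and oxidised lipoproteins (chromosome 5, 17781690 to 17888801, - strand), had 2501, 3220 and 1824 in MKO livers and 3004, 2641 and 3792 in control livers. The ranges overlapped, although the lowest library was an MKO liver and the highest a control liver, and the log2 fold change was -0.34 ± 0.22 (95% interval -0.84 to 0.15; limma adjusted p = 0.603).

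Abcg1 encodes the transporter that passes cholesterol to HDL particles (chromosome 17, 31057675 to 31117988, + strand). It had 465, 455 and 472 normalised counts in MKO livers, against 262, 260 and 165 in control livers. The MKO libraries were almost level and stood apart from the controls, of which control liver 3 was the lowest. Abcg1 averaged 464 ± 8.59 in MKO livers and 229 ± 55.7 in control livers, a log2 fold change of 1.05 ± 0.19 (SE; 95% interval 0.62 to 1.48; limma adjusted p = 0.0209). The call was lost without MKO liver 1, MKO liver 2 or MKO liver 3, with adjusted p of 0.0544, 0.0881 and 0.0908 and log2 fold changes of 1.05, 1.06 and 1.04.

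Abca1 encodes the transporter that passes cholesterol and phospholipid to lipid-poor apolipoprotein A-I (chromosome 4, 53030787 to 53159895, - strand). In bulk liver its counts were 3281, 3711 and 3420 in MKO livers and 3911, 4709 and 2857 in control livers. The 3 MKO libraries lay inside the control range. The means were 3471 ± 220 in MKO livers and 3826 ± 929 in control livers, a log2 fold change of -0.11 ± 0.18 (95% interval -0.52 to 0.29; limma adjusted p = 0.864). In the authors' deposited table the adjusted p of Abcg1 was 1.66e-06, that of Mertk 0.00016, and those of the 7 members not called here were 0.238 to 0.977.

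**Figure D1:**
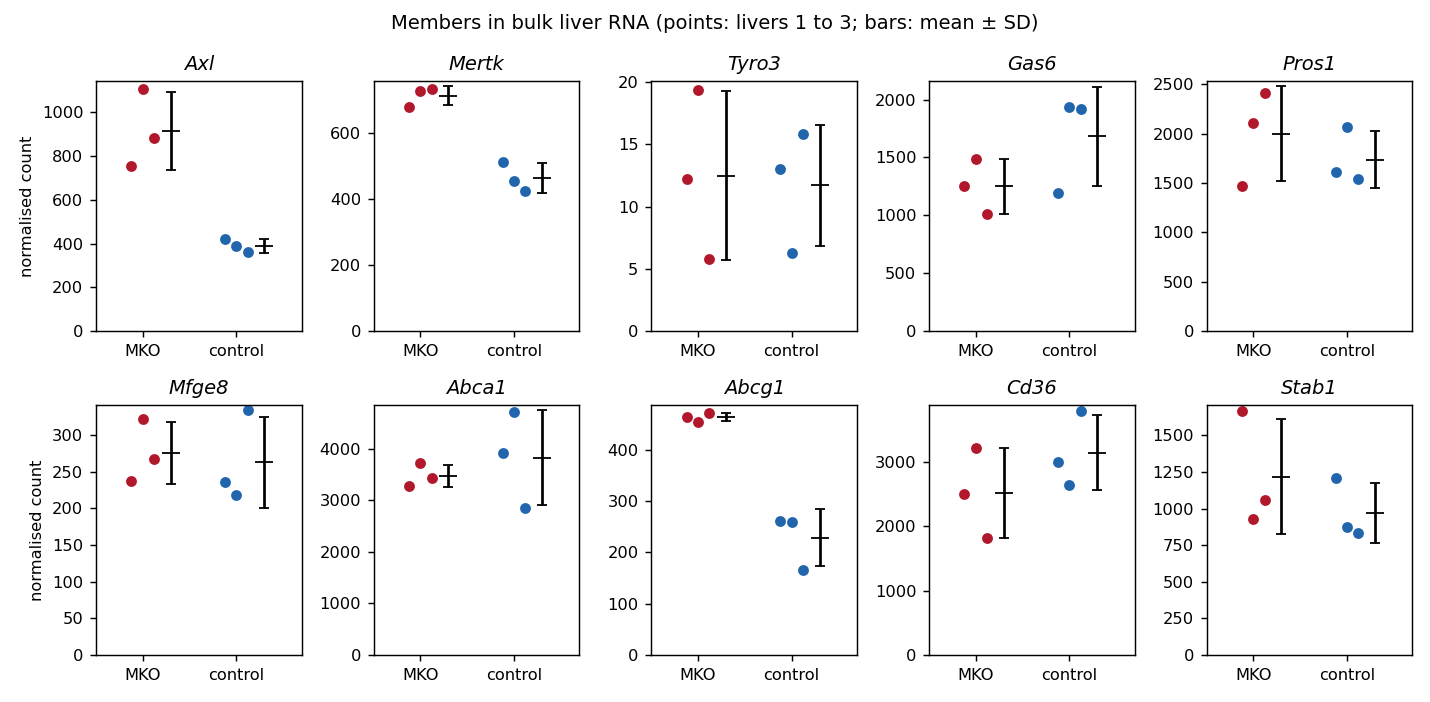
Normalised read counts (vertical axes, from 0) of each of the 10 genes in each liver, with MKO livers 1 to 3 in red at the left and control livers 1 to 3 in blue at the right; bars show the mean ± SD of 3 livers. The MKO points of Axl, Mertk and Abcg1 lie above every control point, and the points of the other 7 genes overlap.

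Set against exon length, the order of the genes was alike in both genotypes except around Axl and Abcg1. Counts per kilobase were highest for Cd36, at 701 in MKO livers and 876 in control livers, then Gas6 at 491 and 660, Pros1 at 489 and 425, and Abca1 at 335 and 369. In MKO livers Axl came next, then Mertk, Stab1 at 118, Abcg1 at 63.6 and Mfge8 at 58.8, whereas in control livers the order was Mertk, Stab1 at 94.4, Axl, Mfge8 at 56.1 and Abcg1 at 31.4. Tyro3 was the lowest in each. Neighbours in the MKO order whose libraries overlapped, and whose order was thus not resolved, were Cd36 and Gas6, Gas6 and Pros1, Axl and Mertk, Mertk and Stab1, and Abcg1 and Mfge8. In control livers they were Cd36 and Gas6, Gas6 and Pros1, Pros1 and Abca1, Mertk and Stab1, and Stab1 and Axl.

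Ratios within a library compared genes of the same role. The log2 ratio of Abcg1 over Abca1 was -2.82, -3.03 and -2.85 in MKO livers and -3.90, -4.17 and -4.11 in control livers, so the balance of the 2 exporters differed by 1.16 with no overlap between the groups. The log2 ratio of Axl over Mertk was 0.14, 0.61 and 0.27 in MKO livers and -0.29, -0.23 and -0.24 in control livers. All MKO ratios of these receptors lay above all control ratios, and the difference was 0.59. Both had an exact permutation p of 0.1, two-sided, which is the smallest that 3 against 3 livers can give, and 0.167 after Benjamini-Hochberg adjustment over the 5 ratios examined. Axl over Tyro3 differed by 1.18 (exact permutation p = 0.1, adjusted 0.167), Mertk over Tyro3 by 0.59 (p = 0.5, adjusted 0.5) and Gas6 over Pros1 by -0.59 (p = 0.2, adjusted 0.25), each by an exact permutation test.

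The wider pathway showed which neighbours of the 10 genes were called with them; the lists were chosen with earlier results of these data known. Of 18 further efferocytosis receptors and bridging molecules, 15 were tested, 6 were called higher in MKO livers and none lower, with a median log2 fold change of 0.77. Counts in this and the following lists stand beside 2.96% of all 15249 genes tested called higher and 0.0853% called lower. Cd300lf, a receptor for phosphatidylserine and ceramide, rose to 226 ± 79.4 in MKO livers, against 48 ± 18.6 in control livers (log2 fold change 2.24 ± 0.36, limma adjusted p = 0.0125). C1qa, a chain of complement C1q that coats dying cells, rose to 2534 ± 439 in MKO livers, against 920 ± 294 (1.5 ± 0.24, adjusted p = 0.013), and Sirpa, the receptor for the "do not eat" signal CD47, to 2480 ± 556, against 1239 ± 102 (0.98 ± 0.17, adjusted p = 0.0188). Sirpa restrains engulfment. Integrin genes that serve as partners of MFG-E8 were not called. Itgav had a log2 fold change of -0.12 ± 0.14 and Itgb5 of -0.10 ± 0.14, while Itgb3 had 0.77 ± 0.34 (limma adjusted p = 0.426). Itgb3 counts were 90.3, 64.2 and 179 in MKO livers and 58.6, 64 and 55.2 in control livers.

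Among 15 genes of the engulfment machinery 4 were called higher and none lower (median 0.32). Rac2, a small GTPase of blood cells that drives actin assembly, rose to 406 ± 98.6 in MKO livers, against 104 ± 16.7 in control livers (log2 fold change 1.94 ± 0.21, limma adjusted p = 0.00414). The exchange factors Dock2 (1.42 ± 0.17) and Vav1 (1.39 ± 0.17) rose with it, and all 3 are genes of blood cells more than of hepatocytes. Of 11 scavenger receptor genes 4 were called higher and none lower (median 1.08), among them Cd68 (1.28 ± 0.20), the mannose receptor Mrc1 (1.14 ± 0.18) and the Kupffer cell product Cd5l (1.68 ± 0.33).

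Genes of LXR signalling and cholesterol handling gave fewer calls. Of 23 tested, 2 were called higher and none lower, with a median of 0.01. Pltp, the phospholipid transfer protein and an LXR target, rose to 874 ± 211 in MKO livers, against 392 ± 45.3 in control livers (log2 fold change 1.14 ± 0.18, limma adjusted p = 0.0125), and Soat1, which esterifies cholesterol in macrophages, to 237 ± 47.4, against 109 ± 28.7 (1.12 ± 0.23, adjusted p = 0.0353). None of 10 genes of fatty acid uptake passed the test in either direction (limma, 1 of them at an unadjusted p under 0.05), and their median was -0.04; Fabp1, the list's gene with the highest mean count, had -0.10 ± 0.25. Of 10 genes of TAM signalling and receptor shedding, Lgals3 was called, with 480 ± 104 in MKO livers and 206 ± 44.1 in control livers (1.22 ± 0.21, adjusted p = 0.017), and the median was 0.10.

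Macrophage markers were counted in the same bulk libraries. Some genes are on both a pathway list and a marker list, among them Cd68 and Cd5l. Whether markers and pathway genes varied together was not tested. Of 15 macrophage markers 11 were called higher and none lower, with a median log2 fold change of 1.58, and of 14 Kupffer cell markers 5 were called higher and none lower. The Kupffer cell median was 1.53, and it was 1.96 without control liver 1 and 0.98 without control liver 3. The 14 hepatocyte markers gave no call by limma, none even at an unadjusted p under 0.05 (median -0.10), and their summed level was 1760003 to 2037477 in MKO livers and 1758067 to 2298422 in control livers. For sinusoidal endothelium 1 of 12 markers was called (median 0.22), namely Mrc1, which was also read in macrophage-like nuclei at 10.3 in the MKO pool and 7.51 in the control pool, and the summed level was 8005 to 9293 in MKO livers and 5970 to 8134 in control livers.

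**Figure D2:**
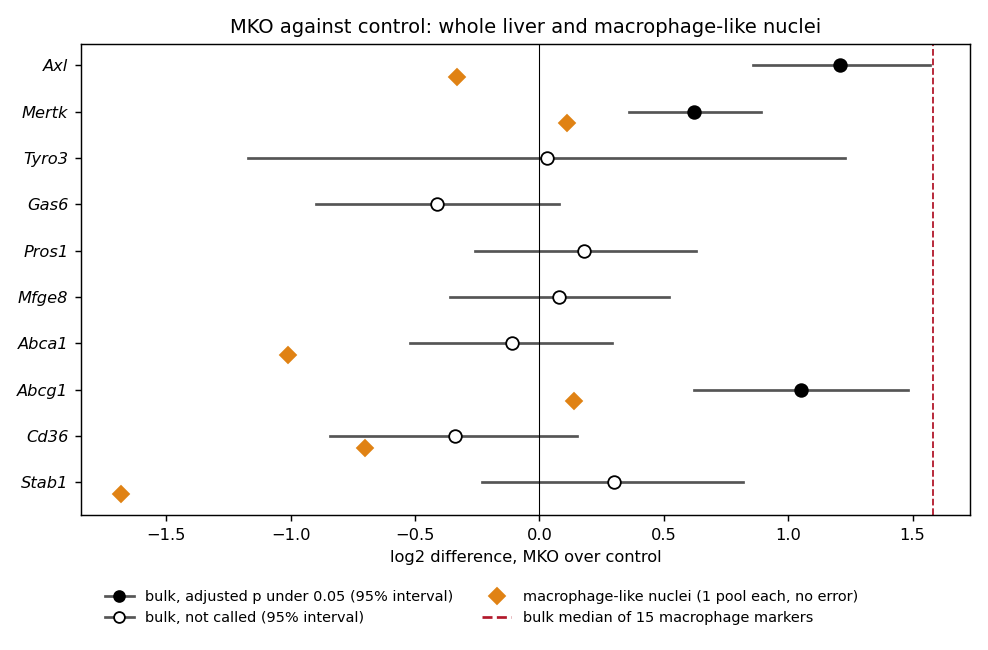
Log2 difference of MKO over control (horizontal axis) for each gene: circles and lines show the bulk fold change with its 95% interval, filled where the adjusted p was under 0.05, and orange diamonds show macrophage-like nuclei, 1 pool for each genotype and no error. Axl, Mertk and Abcg1 lie right of 0 in bulk and left of the dashed red line at 1.58, the bulk median of 15 macrophage markers, while Stab1 and Abca1 lie furthest left in the nuclei.

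The nuclei give a level of each gene in each cluster. Values are the authors' means for a cluster, which sum to 10000 in each pool and cluster, and how many nuclei lie behind each mean is unknown, so no interval or test can be had with 1 pool for each genotype. A cluster is called after the list with the largest share of its markers 2-fold or more above the mean of the other clusters. At least 3 such markers were needed. By that rule cluster 2 was macrophage-like (15 of 15 markers, with Vsig4, Clec4f and Gpnmb among its leading genes), cluster 4 sinusoidal endothelial-like (12 of 12), cluster 9 vascular endothelial-like (8 of 9), cluster 5 stellate-like (12 of 12), cluster 6 bile duct-like (9 of 10) and cluster 12 mesothelial-like (8 of 8). Clusters 0, 1 and 3 were hepatocyte-like with 7 of 14 markers each, clusters 7, 8 and 11 were T and NK-like, B-lineage-like and plasmacytoid dendritic-like, and cluster 10 was dividing-like, with 8 of 14 Kupffer cell markers also enriched. Markers of a next list were enriched in other clusters too. These included Kupffer cell markers in cluster 2 (13 of 14) and bile duct markers in cluster 12 (5 of 10). Cluster 11 held 6 of 15 macrophage markers and cluster 9 held 4 of 12 sinusoidal endothelial markers. Macrophage-like nuclei also held Alb, the hepatocyte albumin gene, at 39.6 in the MKO pool and 27.3 in the control pool, so transcripts of another cell class were read there, and a low level of a gene in a cluster cannot be assigned to the cells of that class.

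Axl was highest in macrophage-like nuclei, at 2.56 in the MKO pool and 3.26 in the control pool. The dividing-like cluster followed with 1.29 and 0.938 and the stellate-like cluster with 0.501 and 0.707, and no hepatocyte-like cluster exceeded 0.0151 in the MKO pool or 0.00469 in the control pool. Mertk had high values in more clusters. It stood at 13.4 in MKO and 12.4 in control macrophage-like nuclei, at 8.26 and 7.51 in sinusoidal endothelial-like nuclei, at 6.39 and 3.4 in the dividing-like cluster and at 2.29 and 2.14 in stellate-like nuclei. Tyro3 reached at most 0.0559 in any MKO cluster and 0.151 in any control cluster, and was listed at 0 in macrophage-like nuclei of both pools.

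The ligands were highest in other clusters. Gas6 was highest in mesothelial-like nuclei, at 9.1 in the MKO pool and 6.87 in the control pool, and in bile duct-like nuclei, at 6.44 and 5.65, and was low in macrophage-like nuclei, at 0.0744 and 0.115. Pros1 was highest in sinusoidal endothelial-like nuclei, with 3.19 in the MKO pool and 3.43 in the control pool, and lay in the 3 hepatocyte-like clusters at 0.875 to 1.55 in the MKO pool and 0.783 to 1.75 in the control pool. Mfge8 was low throughout, with its highest values in bile duct-like nuclei, at 0.747 in the MKO pool and 0.557 in the control pool.

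Stab1 and Cd36 had their highest values in endothelial-like clusters. Stab1 stood at 6.53 in MKO and 5.56 in control sinusoidal endothelial-like nuclei and at 3.81 and 3.67 in vascular endothelial-like nuclei, while in macrophage-like nuclei it was at 0.404 and 1.61. Cd36 stood at 7.21 in MKO and 6.69 in control sinusoidal endothelial-like nuclei, at 4.53 and 7.09 in vascular endothelial-like nuclei and at 2.98 and 4.93 in macrophage-like nuclei. Hepatocyte-like cluster 0, whose leading genes include Cyp2c29 and Cyp2b9, had 1.13 in the MKO pool and 2.33 in the control pool, while clusters 1 and 3 had at most 0.594. Abcg1 was highest in macrophage-like nuclei, at 2.5 in the MKO pool and 2.27 in the control pool, and Abca1 had a value in every cluster, between 0.949 and 5.49 in the MKO pool and between 1.11 and 11.2 in the control pool.

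**Figure D3:**
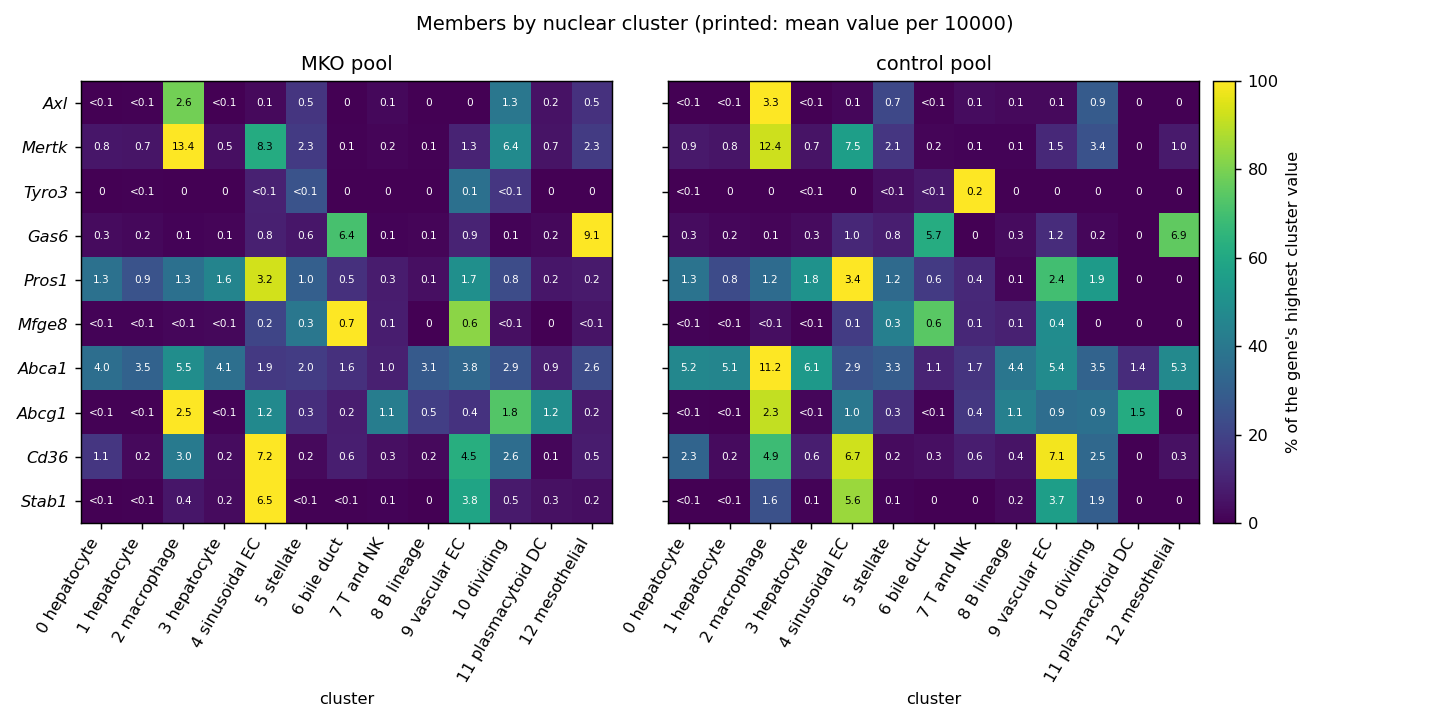
Level of each gene (rows) in each of 13 clusters (columns) in the MKO pool at the left and the control pool at the right, printed as the authors' mean per 10000; colour gives the level as a percentage of the gene's highest value over both pools. Axl and Abcg1 are brightest in macrophage-like cluster 2, Stab1 in sinusoidal endothelial-like cluster 4, Gas6 in mesothelial-like cluster 12, and Abca1 is spread over all clusters.

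Between the pools, the macrophage-like nuclei did not show the bulk differences of Axl, Mertk and Abcg1. Log2 ratios (MKO over control) were formed for genes with at least 1 pool at or above a level of the 90th percentile of non-zero values in that cluster, with a pseudocount of that percentile divided by 10 (0.144 in the macrophage-like cluster). The ratios in that cluster were -0.33 for Axl, 0.11 for Mertk and 0.14 for Abcg1, set against bulk log2 fold changes of 1.21, 0.62 and 1.05. Stab1 and Abca1, at -1.68 and -1.01, were 2-fold or more lower in the MKO pool, and Cd36 was at -0.70. Stab1 and Abca1 were 2 of the 6 members that reached the level, beside 4.72% of 1905 genes in that cluster that were 2-fold or more lower. The level was 1.44 in that cluster. Stab1 reached it only in the control pool, at 1.61, and lay at 0.404 in the MKO pool, so it entered through the pool where it was higher. No member was 2-fold or more higher, beside 5.04% of genes, and the median ratio was -0.52 for the 6 members and -0.07 for all genes. With the pseudocount doubled Abca1 fell short of 2-fold, at -0.99.

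The 2 pools also differed in the markers of their macrophage-like nuclei. The 10 lipid-associated macrophage markers summed to 12.1 in the MKO pool and 23.9 in the control pool, with Gpnmb at 1.18 and 6.14 and Trem2 at 0.0829 and 0.809, and none was at 0. The 15 macrophage markers summed to 80.6 in the MKO pool and 63.1 in the control pool, the 14 Kupffer cell markers to 55.9 and 45.1, and the 14 hepatocyte markers to 78.9 and 56.3. Lyz2, the Cre locus and a gene of the macrophage list, stood at 2.65 in the MKO pool and 6.58 in the control pool. Only MKO mice carry the Cre at this locus, and its part in the Lyz2 difference was not tested. Of the 9 vascular endothelial markers, 1 was at 0 in the control pool, and their sums were 11 and 3.19, which rested on Pecam1 at 8.36 and 1.15. The part of these differences in the ratios of Stab1, Abca1 and Cd36 was not tested. Other genes of the pathway in the same nuclei included the scavenger receptor Colec12 at 0.747 in the MKO pool and 3.99 in the control pool, Cd163 at 2.46 and 1.03, the engulfment factor Dock1 at 1.4 and 2.96, the LXR gene Nr1h3 at 3.2 and 1.74, and Pparg, a nuclear receptor of lipid metabolism, at 10.4 and 3.71; these were picked after their values were seen.

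Over all clusters, 34 of the 130 pairs of a member and a cluster reached the level. Of these, 2 were 2-fold or more lower in the MKO pool, the 2 already named, beside 3.52% of 22031 such pairs over all genes, and 1 was higher, Mertk in mesothelial-like nuclei, at 2.33 in the MKO pool and 0.952 in the control pool (log2 ratio 1.13), beside 3.7%. In that cluster the level was 2.05, which Mertk reached only in the MKO pool, where it was higher. There 88 of 1276 genes at the level were 2-fold or more higher. Without a pseudocount the ratio of MKO over control also lay beyond 2-fold in 2 further pairs, at 0.48 for Cd36 in hepatocyte-like cluster 0 and 0.49 for Abca1 in mesothelial-like nuclei, and with the pseudocount halved 3 pairs were 2-fold or more lower. Cd36 in cluster 0 reached the level only in the control pool. Mertk was above 0 on the log2 ratio scale in all 5 clusters where it reached the level, and Pros1 was below 0 in all 5 of its clusters, between -0.44 and -0.03. Pros1 reached the level in stellate-like nuclei only in the control pool. Over all 13 clusters, whatever the level, directions were mixed. Mertk was higher in the MKO pool in 7 and lower in 6, and Pros1 was higher in 5 and lower in 8. The median ratio over all genes at the level was itself below 0 in every cluster, between -0.20 and -0.04. Among those genes Pros1 lay between percentiles 16.4 and 54.5, and Mertk between 66.5 and 94.8. How many other genes kept 1 sign in as many clusters was not counted. Cd36 was at -0.97 in hepatocyte-like cluster 0 and at -0.63 in vascular endothelial-like nuclei, yet at 0.11 in sinusoidal endothelial-like nuclei.

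Abca1 was lower in the MKO pool in 11 of the 12 clusters where it reached the level. Its values were 5.49 in the MKO pool and 11.2 in the control pool in macrophage-like nuclei, 2.6 and 5.28 in mesothelial-like nuclei, 4.07 and 6.08 in hepatocyte-like cluster 3, and 2 and 3.28 in stellate-like nuclei. Bile duct-like nuclei went the other way, at 1.56 in the MKO pool and 1.11 in the control pool. There Abca1 reached the level only in the MKO pool, and in T and NK-like nuclei only in the control pool. Clusters of 1 pool share their library and are not replicates: among 514 genes that reached the level in at least 12 clusters, 30.9% were lower in the MKO pool in at least 11 of them. The median log2 ratio of Abca1 over its clusters was -0.54, against -0.14 for those genes, and 9 of them, Abca1 included, had a median as low. The bulk libraries, where the log2 fold change of Abca1 was -0.11 with an interval down to -0.52, did not show a difference.

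**Figure D4:**
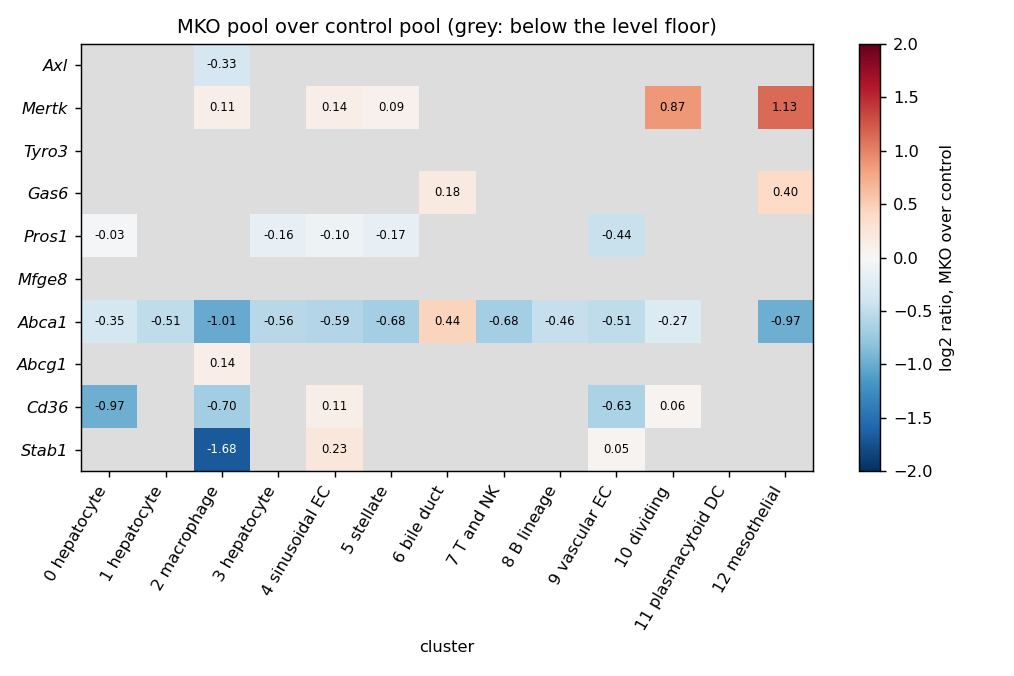
Log2 ratio of the MKO pool over the control pool for each gene (rows) and cluster (columns), with blue for lower and red for higher in the MKO pool, and grey where neither pool reached the level needed. Abca1 is blue in 11 of its 12 clusters, and the darkest blue is Stab1 in macrophage-like cluster 2, at -1.68, where only the control pool reached the level.

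Abca1 is shown with the 250 bases before its RefSeq start because it was the member read at a measurable level in the most clusters, and was lower in the MKO pool in nearly all of them. Capitals mark 2 GC boxes at -163 and -97, the E-box CACGTG at -147, and at -67 a stretch that matches the direct repeat of LXR (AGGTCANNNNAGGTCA, either strand) with 3 mismatches.
Abca1 promoter, chr4:53159896-53160145, - strand: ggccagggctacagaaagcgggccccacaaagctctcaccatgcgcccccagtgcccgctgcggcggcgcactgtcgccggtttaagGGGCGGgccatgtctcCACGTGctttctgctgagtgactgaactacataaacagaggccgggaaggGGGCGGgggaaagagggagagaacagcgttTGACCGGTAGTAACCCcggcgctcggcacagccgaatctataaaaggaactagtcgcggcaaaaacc
The limit of 3 mismatches was set after a first search with 2, which matched no member. With 2 mismatches 2.57% of all promoters of that length hold such a repeat, and with 3 mismatches 18.5% do.

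The genes whose levels over the 13 control clusters were most like those of each TAM receptor are given with Pearson's r, as a description, since all points come from 1 library. For Axl these were Adgre4 (r = 0.94), an adhesion receptor of myeloid cells, Aoah (0.94), which inactivates bacterial lipopolysaccharide, and Lpcat2 (0.93), an enzyme of phospholipid remodelling. For Mertk they were Sash1 (0.89), Xdh (0.89), the xanthine dehydrogenase gene, and Pde7b (0.88), a cyclic AMP phosphodiesterase; Sash1 and Xdh were highest in sinusoidal endothelial-like nuclei and Pde7b in macrophage-like nuclei. For Tyro3 they were Ncr1 (0.99), Trbc1 (0.99) and Txk (0.98), all highest in T and NK-like nuclei, and rest on the value of 0.151 for Tyro3 there.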

How the data were processed

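Bulk liver RNA and liver nuclei were measured in MKO and control mice. Cell Ranger, Seurat 4.0.1, STAR, RSEM 1.3.3, DESeq2 and FastQC are named with the mm10 build, per the submitters' processing notes, without their roles or settings, which are thus not given in the sources used here. For bulk RNA the authors deposited a signal, read counts scaled by a size factor for each library. Undoing that scaling gave whole reads for 100% of values, to within 0.01. The authors' deposited table also gives log2 fold changes and p-values, quoted only where named. The nuclear signal deposited by the authors is a mean for each gene, cluster and pool.

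Values were tested with limma-trend (limma 3.58.1, R 4.3.3) on log2(value + 1), which understates changes of low genes, over the 15249 genes with a mean of at least 1 (34 left out), with Benjamini-Hochberg adjustment. The recovered reads were tested with edgeR 4.0.16 and DESeq2 1.42.0 as alternatives. The design assumed normalised bulk values, and the files held them. Nothing in the labels says that the livers of a group were separate animals, and p-values then reflect only how these samples vary, which may be technical. Within a group no library duplicated another (chi-square divided by its degrees of freedom was 28.1 to 73.1), and MKO libraries were not compared with control libraries in this way. Depth limits the nuclei in an unknown way, since numbers of nuclei, filters and doublet removal are unstated. The scripts were tested on simulated data.

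The 10 genes and all lists were chosen with earlier results of these data known. Besides the 10, named genes were Tgfbr1, from each pathway list the 3 called genes of lowest p (fewer where fewer were called, and the most abundant gene where none was), and 3 genes most like each TAM receptor across control clusters. Itgav, Itgb5, Itgb3, Lyz2 and genes of the closing observations were named after their values were seen. So were the macrophage-cluster genes Colec12, Cd163, Dock1, Nr1h3, Pparg, Gpnmb, Trem2, Alb, Mrc1 (there) and Pecam1. Promoters are from RefSeq (GRCm38.p6), with 9 of 10 members matched. Transcribed bases were left out.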

Additional observations from a re-analysis of the deposited data

How the results depend on the processing

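Axl kept its call under every alternative run (pseudocount, filter, scaling, edgeR, DESeq2, the replicate block and each library left out), with log2 fold changes of 1.06 to 1.34 and limma adjusted p of 0.00769 to 0.0305 without 1 library. Mertk lay between 0.56 and 0.69 (adjusted p 0.0332 to 0.114) and Abcg1 between 0.83 and 1.16 (0.0253 to 0.0908) without 1 library. Members called higher then numbered 1 to 3, with 1 left without MKO liver 2 or MKO liver 3. The signs of 3 members that were not called turned in such fits: Tyro3 ranged from -0.34 to 0.45, Mfge8 from -0.04 to 0.27 and Abca1 from -0.31 to 0.05. Over all genes, 175 to 410 were called higher and 5 to 31 lower without 1 library, compared with 452 and 13 in the full fit. The count called lower was 5 with equal totals per library and 50 with DESeq2. Fewer samples enter each leave-one-out fit; otherwise the cause was not tested.

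Same-numbered libraries did not deviate together (correlations 0.06, -0.03 and -0.11), and different-numbered ones had correlations of -0.11 to 0.15. With 3 libraries a group, these values cannot decide whether the numbers pair the livers. With the number as a replicate block, Mertk stayed at 0.62 with an adjusted p of 0.0677, and 391 genes were called higher and 17 lower. In the nuclei, halving the pseudocount gave 3 pairs 2-fold lower over all clusters, and doubling it left 1 member 2-fold lower in the macrophage-like cluster and 1 pair lower over all clusters. A floor at the 75th percentile gave 4 pairs lower and 2 higher, and one at the 95th gave 1 lower, also in the macrophage-like cluster, and 0 higher. All 45 alternative values of the 5 ratios kept their direction. Among medians of the gene lists, 11 of 154 alternative values moved beyond the limit set, all on leaving out a library. With 3 livers a group, intervals of 7 members include 0 and do not show that those genes are unaltered.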

Other observations

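Markers of other cell classes were also counted in bulk RNA, in lists chosen with earlier results known; the counts are of genes, and some of the genes called are also read in macrophage-like nuclei. They stand beside 2.96% of all genes tested called higher and 0.0853% called lower. Of 11 T and NK cell markers tested, 4 were called higher in MKO livers by limma and none lower, with a median log2 fold change of 1.29. Of 9 monocyte markers 3 were called higher, among them Itgam, which is on the macrophage list too, and 1 was called lower, with a median of 0.75. Of 7 dendritic cell markers 3 were called higher and none lower (median 0.75). The calls were Clec9a, Batf3 and Wdfy4, and in macrophage-like nuclei Batf3 stood at 1.27 in the MKO pool and 0.516 in the control pool and Wdfy4 at 4.14 and 3.22. The 1 call among 4 neutrophil markers was Csf3r, at 1.7 in MKO and 2.03 in control macrophage-like nuclei, and the neutrophil median was 0.41, against 0.03 without MKO liver 2 and 0.69 without MKO liver 1. The 1 call among 9 vascular endothelial markers was Pecam1, whose values in macrophage-like nuclei were 8.36 and 1.15. Lipid-associated macrophage markers, which include Lgals3, split into 2 of 10 called higher and 1 called lower, with a median of -0.35, between -0.51 (without control liver 1) and -0.09 (without control liver 2). No marker of stellate cells (12 tested), bile duct (10), mesothelium (5), B lineage (7), plasmacytoid dendritic cells (6) or dividing cells (8) was called by limma, although 3 of the B lineage, 2 of the plasmacytoid dendritic and 1 of the bile duct markers had an unadjusted p under 0.05.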
